A study of Mus musculus with 84 samples.

Results

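Acetylation of lysine 27 on histone H3 (H3K27ac) was compared between nuclei isolated as labelled adipocyte nuclei from mice fed a high-fat diet for 25 weeks (HH, 3 libraries) and from mice of the same age kept on control diet (CC_l, 2 libraries), all 31 weeks old. These 5 libraries were all those of the diet groups and the mark in question, among 21 H3K27ac libraries and 84 libraries of the series. Every mouse was a male carrying both AdipoERCre and NuTRAP alleles on a background that the labels spell C576BL6, and all received tamoxifen at an age of 4 to 5 weeks, with a washout before the diets began. The Cre is driven by Adipoq, an adipocyte gene, and turns on a nuclear tag, so that tagged nuclei could be pulled from epididymal fat, a visceral fat pad, with beads. CUT&Tag was run on these nuclei, which means that a transposase was tethered by antibody to the mark and inserted sequencing adapters beside it, and each library was deposited as a list of peaks. The labels give the libraries as biological replicates.

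H3K27ac sits on nucleosomes at active promoters and active enhancers and is written by the acetyltransferases p300 and CBP. It is absent from most silent genes, and it cannot coexist with trimethylation of the same lysine (H3K27me3), the mark of polycomb repression. In adipocytes, PPARγ and C/EBP factors bind many of the acetylated enhancers, while PU.1 (Spi1) has the corresponding role in macrophages and AP-1 factors bind at enhancers in many stimulated cells.

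Promoters were taken as 2000 bp on either side of each start site of 21851 protein-coding genes, and the distal sites were 59399 merged H3K27ac regions that touched no promoter. The regions were merged over all 21 H3K27ac libraries of the series, and 37707 of them had a peak in at least 1 of the 5 libraries. Shares of all regions therefore include regions seen only in other mice. Overlap by at least 1 bp with a peak counted a site as marked in that library. It was called gained when marked in 3 of 3 HH and 0 of 2 CC_l libraries, and lost when marked in 0 of 3 HH and 2 of 2 CC_l libraries. By this rule 98 promoters (0.448% of all promoters) were gained and 88 (0.403%) were lost, and 470 regions (0.791% of all regions) were gained and 1514 (2.55%) were lost. These calls are patterns of presence and carry no test, and with 3 against 2 libraries the smallest p that an exact two-sided permutation test can give is 0.1. The strength of a peak is given below as its percentile, which is the rank of its total signal among all peaks of its own library, with 100 as the strongest peak. The lists hold no read depth, and a site without a peak is one that did not reach the caller's cutoff in that library and may still carry the mark.

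Some of the sites that the results turn on are shown first by sequence. Of the 98 gained promoters, 63 could be matched to a RefSeq promoter, which spans 250 bases before to 50 bases after the start site on GRCm38. The letters GAGGAAGT, a binding sequence of PU.1, were found on either strand in 9 of these 63 (14.3%), in 1 of 67 matched lost promoters (1.49%) and in 997 of 27025 promoters in all (3.69%). The 9 genes were C1qc, Cd53, Fgd3, Hpgds, Ly6c1, Nfkbid, Pirb, Rasgrp3 and Strn4, and the single lost promoter was that of Rnf183. A match is a description of the letters and not a bound site. The promoters of C1qc (chr4:136892865-136893164, minus strand), which encodes a chain of complement C1q, of Cd53 (chr3:106790100-106790399, minus strand), a leukocyte tetraspanin, and of Pirb (chr7:3720333-3720632, minus strand), an inhibitory receptor of myeloid cells, are printed 5′ to 3′ along the gene's strand, with the PU.1 letters or their reverse complement in capitals.
C1qc: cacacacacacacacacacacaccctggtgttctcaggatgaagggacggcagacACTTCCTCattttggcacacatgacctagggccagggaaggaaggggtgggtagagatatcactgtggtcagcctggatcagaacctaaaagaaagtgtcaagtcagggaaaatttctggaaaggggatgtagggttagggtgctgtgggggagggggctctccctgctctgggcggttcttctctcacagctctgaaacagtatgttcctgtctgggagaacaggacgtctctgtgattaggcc
Cd53: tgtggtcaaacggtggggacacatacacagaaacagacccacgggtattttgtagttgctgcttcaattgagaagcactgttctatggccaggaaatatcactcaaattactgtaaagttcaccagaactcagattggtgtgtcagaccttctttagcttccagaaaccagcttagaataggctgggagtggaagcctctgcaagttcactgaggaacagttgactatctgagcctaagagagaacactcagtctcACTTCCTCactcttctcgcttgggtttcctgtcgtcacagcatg
Pirb: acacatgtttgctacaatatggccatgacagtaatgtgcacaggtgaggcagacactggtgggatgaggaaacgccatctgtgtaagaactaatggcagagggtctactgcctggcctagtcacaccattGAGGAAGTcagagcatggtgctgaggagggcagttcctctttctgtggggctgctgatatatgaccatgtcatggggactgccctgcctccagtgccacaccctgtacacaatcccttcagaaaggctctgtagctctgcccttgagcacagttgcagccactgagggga

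At distal regions, the central 301 bases were searched for other binding sequences on both strands. The AP-1 letters TGANTCA were found in 75 of 470 gained regions (16%), in 135 of 1514 lost regions (8.92%) and in 6203 of 59399 regions in all (10.4%). The C/EBP letters TTGCNNAA were found in 11.1% of gained, 17.7% of lost and 13.7% of all regions. The AP-1 shares were 14.6% of gained and 8.64% of lost regions when regions were called without HH library 1, whereas the C/EBP shares were then 17.1% and 16.9%. An example of each is printed from GRCm38, plus strand, with the motif or its reverse complement in capitals. They are the gained region whose closest gene is Col18a1, at 39289 bp (shown: chr10:77206846-77206932), the lost region whose closest gene is Ccdc171, at 105480 bp (shown: chr4:83973315-83973402), and a lost region in an intron of Slit3 (shown: chr11:35604954-35605041).
Gained, AP-1: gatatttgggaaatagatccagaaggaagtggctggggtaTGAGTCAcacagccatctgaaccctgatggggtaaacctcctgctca
Lost, C/EBP: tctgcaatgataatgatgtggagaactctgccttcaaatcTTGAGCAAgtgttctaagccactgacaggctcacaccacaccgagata
Lost, C/EBP, Slit3: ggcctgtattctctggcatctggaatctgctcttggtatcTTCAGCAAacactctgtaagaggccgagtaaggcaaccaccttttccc

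PU.1 letters were found in 1.91% of gained, 1.52% of lost and 2.79% of all regions, so the difference seen at promoters was not present at regions. A stretch of the site used by PPARγ with its partner RXR (AGGTCAAAG) was rare, at 0.213% of gained, 0.396% of lost and 0.520% of all regions. The letters CACGTGAC, an E-box of lysosomal genes, were found in 0.426% of gained, 0.132% of lost and 0.583% of all regions. Median GC content of the 301 bases was 47.2% in gained, 46.2% in lost and 46.8% in all regions. At the matched promoters, AP-1 letters were in 4.76% of gained, 8.96% of lost and 8.97% of all, so gained sites were low there and high at regions. C/EBP letters were in 15.9% of gained, 19.4% of lost and 12.2% of all matched promoters. The lysosomal E-box was in 3.17%, 4.48% and 2.55%, and AGGTCAAAG in 0%, 0% and 0.488%.

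HH library 1 stood apart from the other 4 libraries. The overlap of peak sets, as base pairs shared over base pairs covered by either (Jaccard index), was 0.258 to 0.324 between HH library 1 and any other library. It was 0.542 between HH libraries 2 and 3, 0.545 between the CC_l libraries, and 0.493 to 0.526 between HH libraries 2 and 3 and the CC_l libraries. In HH library 1 no peak was listed at 7 of 30 promoters of adipocyte identity genes, namely Adipoq, Cidec, Lep, Cfd, Adrb3, Pck1 and Nrg4, whose peaks in the other 4 libraries were at percentiles 85.6 to 100. Adipoq, which encodes adiponectin and drives the Cre, was at percentiles 99.98, 99.99, 99.98 and 100 in the other 4. HH library 1 also had a peak at 18 of 20 endothelial marker promoters, against 9 and 4 in HH libraries 2 and 3 and 9 and 3 in the CC_l libraries, and at 16 of 20 stromal progenitor promoters, against 9 to 11 elsewhere. The defining markers of adipocytes were thus in part absent from a library labelled as adipocyte nuclei, and whether it holds the same kind of nuclei as the others was not tested. Many results that rest on this library are therefore also given without it, and the others are given from all 5 libraries only.

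In the number, width and placement of peaks, the CC_l libraries lay within the range of the HH libraries, which was wide. The permutation tests given here cannot reach a p below 0.1 with so few libraries, so they cannot show that the diets were alike. The lists held 38712, 33204 and 29245 peaks in HH and 37282 and 30651 in CC_l (log2 difference -0.01, exact permutation p = 0.9). Median peak width was 1613, 2032 and 2132 bp in HH and 1868 and 1893 bp in CC_l (exact permutation p = 1.0), and the share of peaks at promoters was 32.8% ± 0.862 (SD, n = 3) and 32.7% ± 0.187 (SD, n = 2), with an exact permutation p of 0.7. A peak was present at 12048, 10856 and 9652 promoters in HH and at 11706 and 10194 in CC_l. Of the 21851 promoters, 13545 had a peak in at least 1 of the 5 libraries and 8279 in 5 of 5, so that most acetylated promoters were shared between the diets.

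Among the gene lists compared, promoter acetylation differed most between the diets at macrophage genes. Of the 29 macrophage markers measured, 17 promoters were marked in a larger share of HH than of CC_l libraries and none in a smaller share, while 12 had the same share in both. Of these 3 were called gained and none lost, against 0.448% of all promoters gained. In percent of the 29 promoters, 58.6, 62.1 and 34.5 were marked in the HH libraries and 24.1 and 13.8 in the CC_l libraries, so the groups did not overlap. The difference of the means was 32.8 percentage points with all libraries, 29.3 without HH library 1, and between 27.6 and 41.4 when each library was left out in turn. Over all genes the means were 49.7% and 50.1%. In nuclei pulled from tissue, more nuclei of another cell type and more mark per adipocyte nucleus cannot be told apart.

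The macrophage promoters called gained were those of Csf1r, Tyrobp and C1qc. Csf1r, the receptor through which macrophages are maintained, was at percentiles 69.5, 75.3 and 25.8 in the HH libraries. Tyrobp, an adaptor for activating receptors of myeloid cells, was at 99.4, 60.2 and 7.72, and C1qc, printed above, at 41.5, 27.9 and 7.82. In each of the last pair the peak in HH library 3 was among the weakest of its list.

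Several further macrophage promoters had a weak peak in 1 CC_l library and were therefore not called. Mpeg1, which encodes the pore-forming perforin-2 of macrophages, was at percentiles 90.6, 89.3 and 89.0 in HH and at 11.5 in CC_l library 1, with no peak in CC_l library 2. Cd74, the invariant chain of antigen presentation, was at 97.8, 79.0 and 54.6 in HH and at 33.6 and no peak in CC_l. Spi1, which encodes PU.1, was at 69.7, 64.7 and 11.3 in HH and at 9.44 in CC_l library 2. At each of these 3 promoters, every HH percentile was above the CC_l value. Over all promoters, 412 (1.885%) were marked in 3 of 3 HH and 1 of 2 CC_l libraries. The share of all promoters with such an order of percentiles is not given here, so the order at these 3 has no background beside it. Other markers were marked in fewer HH libraries, as at C1qa (43.8 and 35.6), Ptprc (65.3 and 34.99) and Fcgr1 (16.1 and 26.5), which had peaks in HH libraries 1 and 2 and none in HH library 3 or CC_l.

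The macrophage list was not marked as a whole. Itgam, Itgax, Mrc1, Cd163, Msr1, Cybb, Mmp12, Atp6v0d2 and Lyz2, several of which define macrophages, had no peak in any of the 5 libraries. Adgre1, which encodes F4/80, had a single peak at percentile 10.7 in HH library 2. In contrast, Cd68, a lysosomal membrane protein, was at 97.7, 95.7 and 94.3 in HH and 95.6 and 92.1 in CC_l, and Fcer1g was likewise marked in 5 of 5.

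Endothelial and stromal genes differed mainly in HH library 1. The endothelial promoters marked amounted to 51.7% ± 35.5 (SD, n = 3) in HH and 30.0% ± 21.2 (SD, n = 2) in CC_l, and the difference of 21.7 points was 2.5 points without HH library 1. Stromal progenitor promoters were marked at 58.3% ± 18.9 and 52.5% ± 3.54, and the difference of 5.83 points was -5.0 points without HH library 1. Lymphocyte promoters were marked at 5, 3 and 1 of 19 in HH and at 2 and 1 of 19 in CC_l. Mural and smooth muscle promoters went the other way, with 5, 5 and 7 of 15 in HH and 7 and 8 of 15 in CC_l, and the promoter of Myh11, the smooth muscle myosin heavy chain, was called lost. Mesothelial promoters were marked at 2 of 15 in each of the 5 libraries, epithelial promoters at no more than 1 of 12, and neuronal and glial promoters at 1 or 2 of 14. The part of these cell types in the gained and lost promoters was not tested.

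**Figure D1:**
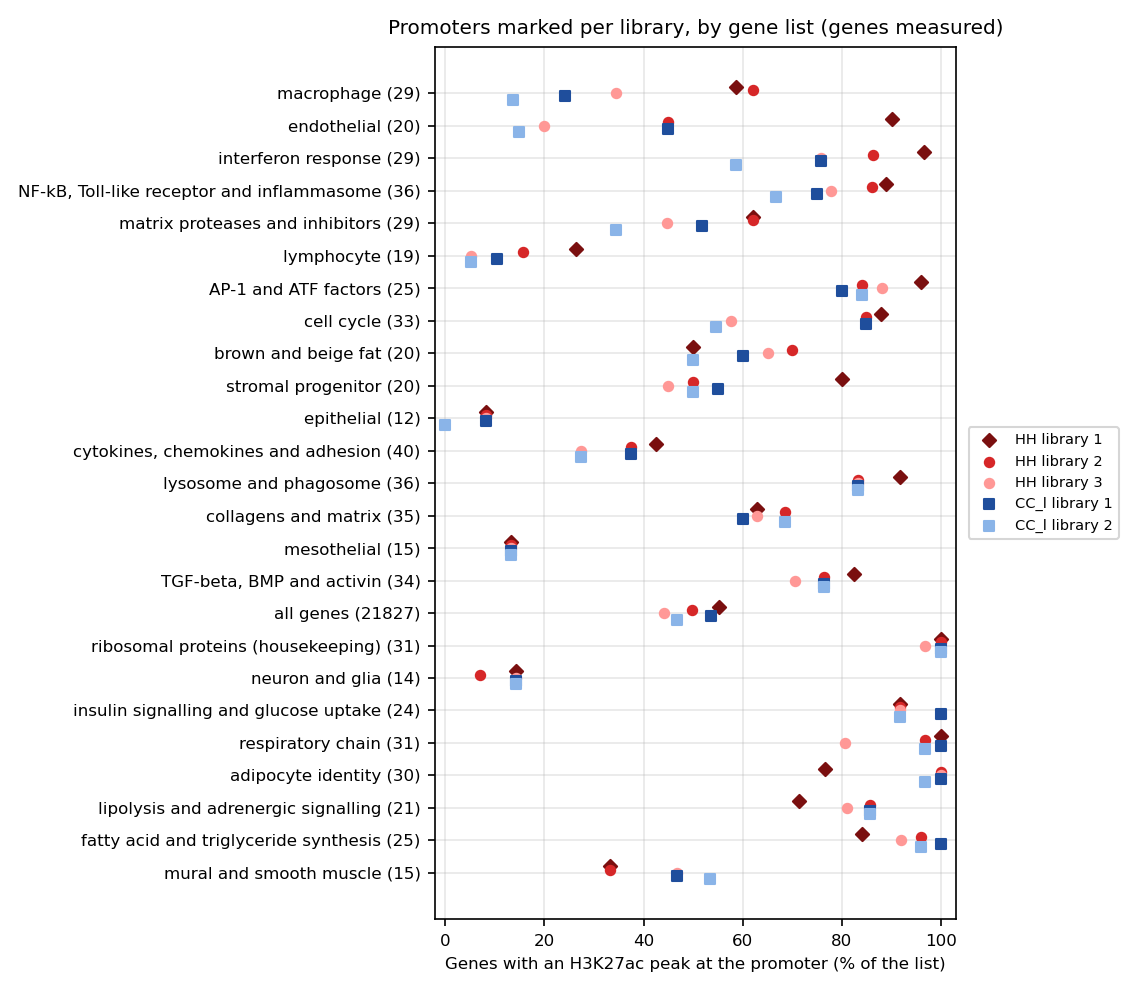
Share of the genes of each list with an H3K27ac peak at the promoter (x axis, percent; genes measured in parentheses), 1 symbol per library, HH in red and CC_l in blue. The 3 HH libraries lie above both CC_l libraries for macrophage genes, while HH library 1 alone lies low for adipocyte identity (76.7%) and high for endothelial genes (18 of 20).

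Promoters of innate immune genes showed a smaller difference in the same direction. Of 29 interferon response genes, 12 promoters were marked in a larger share of HH libraries and none in a smaller share, while over 21827 gene symbols 2500 were in a larger and 2760 in a smaller share. They were marked at 96.6%, 86.2% and 75.9% in HH and at 75.9% and 58.6% in CC_l, so that HH library 3 and CC_l library 1 were equal. The difference of 18.97 points was 13.8 points without HH library 1 and 10.3 points without CC_l library 2. Ciita, the master regulator of MHC class II genes, was called gained, at percentiles 56.9, 10.9 and 18.1. Irf5, a transcription factor of inflammatory macrophages, was at 94.4, 59.0 and 47.02 in HH and at 5.23 and no peak in CC_l, and Ifitm3, which blocks viral entry, was at 92.9, 79.3 and 62.8 in HH and at 52.9 and no peak in CC_l. Both were thus stronger in every HH library than in either CC_l library, though the share of all promoters with this order is not given here.

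Of 36 genes of NF-kB, Toll-like receptor and inflammasome signalling, 10 promoters were marked in a larger and 1 in a smaller share of HH libraries. The means were 84.3% ± 5.78 and 70.8% ± 5.89, a difference of 13.4 points that was 11.1 points without HH library 1. Tlr6, which pairs with Tlr2 to sense bacterial lipopeptides, was called gained at percentiles 65.9, 27.3 and 4.95. Casp1, the protease that matures interleukin-1β, was called gained at 55.4, 50.03 and 22.5. Nod2, a sensor of bacterial cell wall, was at 98.8, 39.6 and 20.8 in HH and 37.2 and no peak in CC_l, so that its values overlapped. Cytokines, chemokines and adhesion molecules differed by less than their spread, at 35.8% ± 7.64 and 32.5% ± 7.07 of 40 promoters.

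The gained promoters with the strongest peaks, ranked by the weakest of their 3 HH peaks, were led by Prkch (chr12:73584796-73778185, plus strand), which encodes protein kinase C eta. It was at percentiles 92.2, 79.7 and 66.5. Next were Abi3, an actin regulator that shares its window with Gngt2 (85.8, 84.4 and 65.5), Exoc6, a subunit of the exocyst that tethers secretory vesicles (88.5, 63.0 and 60.2), and Pcdh1, a cell adhesion protein (93.1, 92.9 and 58.0). Cd53 was the promoter of this group at which HH library 1 was the weakest, at 55.1 against 71.7 and 73.8, together with Sytl3, a regulator of vesicle exocytosis that shares its window with Dynlt1f, at 40.3 against 69.6 and 54.9.

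Others of these leading 15 were Ly6c1, a surface protein of leukocytes and endothelial cells (96.1, 69.3 and 56.7), Lat2, an adaptor of immune receptors (85.9, 68.5 and 42.3), and Fli1, an ETS transcription factor of blood and endothelial cells (99.2, 77.7 and 39.8). In these HH library 1 was the strongest, unlike at Cd53. The remaining members were Sema3b, a secreted guidance factor (69.2, 75.3 and 53.2), Serping1, the inhibitor of complement C1 (55.5, 61.9 and 46.8), Spc25, a kinetochore protein (49.1, 49.2 and 45.6), H2afy, the histone variant macroH2A (71.3, 58.3 and 45.1), Phxr2 (56.5, 58.7 and 47.5) and Ier5l (96.1, 84.3 and 39.5). At the edge of the call, the gained promoter with the weakest peak was Il10ra, the interleukin-10 receptor, at 94.8, 45.2 and 0.04. The median percentile of the 98 gained promoters was 68.8, 40.8 and 22.4 in the 3 HH libraries, while promoters marked in 5 of 5 libraries had medians of 65.1 to 85.1, so the gained promoters carried weak peaks in HH library 3.

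A few other gained promoters are named for their function and were chosen after their values were seen. Cd180, a relative of Toll-like receptors on immune cells, was at 88.3, 78.8 and 29.4, Pirb at 73.7, 55.3 and 13.9, and Hpgds, the haematopoietic prostaglandin D synthase, at 23.6, 44.5 and 20.3. Il34, another ligand of Csf1r, was at 0.53, 93.7 and 37.9, which makes it weak in HH library 1. Vegfc, the growth factor of lymphatic vessels, was at 29.1, 40.6 and 13.2. Col16a1, from the list of collagens and matrix, was at 34.7, 47.2 and 84.3, and Kcnk3, a potassium channel from the brown and beige fat list, was at 42.1, 48.3 and 21.7.

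**Figure D2:**
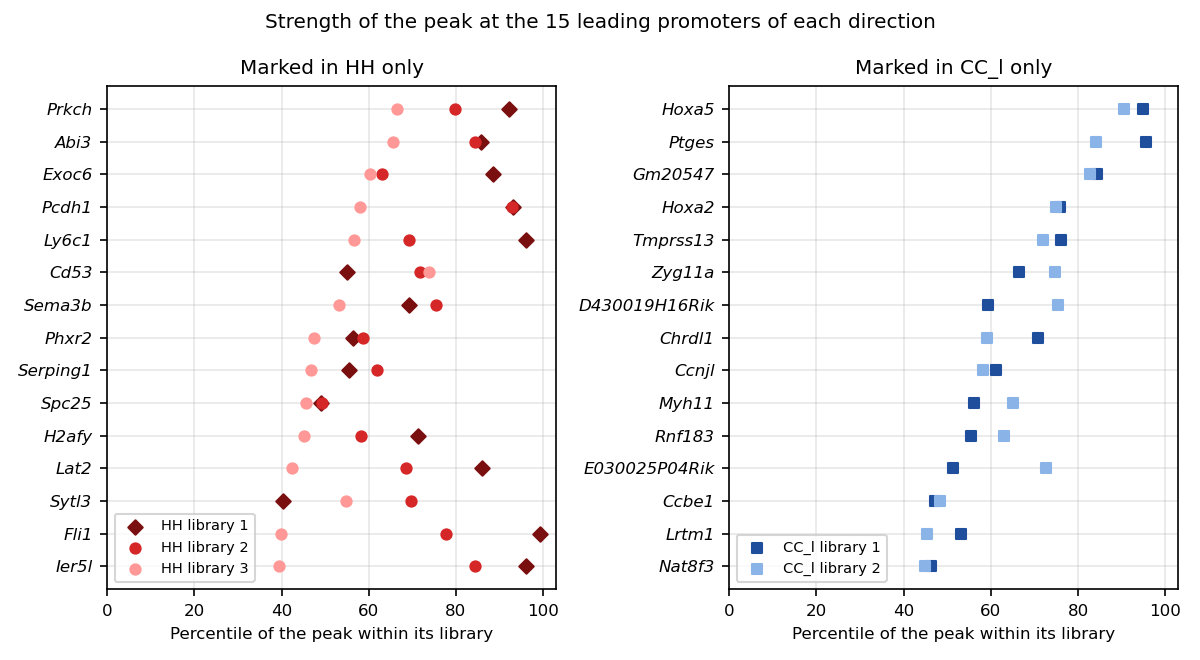
Percentile of the peak within its library (x axis, 100 as strongest) at the 15 leading gained promoters (left) and lost promoters (right), 1 symbol per library in which the promoter was marked. Each row is led from the top by the promoter whose weakest peak was strongest, so that Prkch (66.5 in HH library 3) and Hoxa5 (90.5 in CC_l library 2) head the panels.

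The lost promoters included a pair of Hoxa genes. Hoxa5 (chr6:52201754-52204587, minus strand), a homeobox transcription factor of positional identity, was at percentiles 94.9 and 90.5 in the CC_l libraries and had no peak in any HH library. Hoxa2 was at 75.9 and 74.9. The neighbouring genes of the cluster were looked at after these values were seen. Hoxa4 was at 78.5 and 78.6 in CC_l and had a peak only in HH library 2, at 41.6. Hoxa6, whose promoter lies under the same CC_l peak as that of Hoxa5, and Hoxa7 were likewise marked in both CC_l libraries and only in HH library 2, at 71.0 and 32.9. Hoxa10, Hoxa11 and Hoxa13 were marked in none of the 5 libraries. From Hoxa2 to Hoxa7, HH libraries 1 and 3 had no peak at any of these promoters, except at Hoxa3, where HH library 1 had a peak at 89.8.

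Ptges (chr2:30889471-30929863, minus strand), the inducible synthase of prostaglandin E2, was at 95.7 and 84.1 in CC_l, and Gm20547, which shares its window with the complement gene C2, was at 84.4 and 82.8. Chrdl1, a secreted antagonist of bone morphogenetic proteins, was at 70.8 and 59.1. Nog, another such antagonist and the only one of 34 genes of the TGF-beta, BMP and activin list to be called, was at 28.1 and 49.2. The other leading promoters were those of Tmprss13, a membrane serine protease (76.0 and 71.9), Zyg11a (66.4 and 74.8), D430019H16Rik (59.5 and 75.3), Ccnjl (61.3 and 58.2), Myh11 (56.1 and 65.2), Rnf183, a ubiquitin ligase (55.5 and 63.0), E030025P04Rik (51.3 and 72.7), Ccbe1, a factor of lymphatic vessel growth (47.3 and 48.3), Lrtm1 (53.1 and 45.5) and Nat8f3, a member of an acetyltransferase family (46.3 and 44.95). None of these had a peak in any HH library. Over all 88 the median percentile was 30.4 and 30.9, so most lost promoters also carried weak peaks.

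Several lost promoters belonged to metabolic genes, again named after their values were seen. Nat8, a neighbour of Nat8f3 on chromosome 6, was at 65.1 and 42.4. Acox2, a peroxisomal oxidase of branched lipids and bile acid precursors, was at 36.6 and 23.4, and Slc2a12, a glucose transporter, was at 13.7 and 28.7. Apoa1, the main protein of high-density lipoprotein, was at 21.9 and 59.3, Prlr, the prolactin receptor, at 27.2 and 47.6, Pon1, a lipoprotein-bound esterase, at 29.7 and 9.47, and Npas2, a circadian transcription factor, at 8.29 and 72.1. In the last pair 1 of the 2 CC_l peaks was close to the cutoff.

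Most genes that make and store fat kept their promoter peaks. Of 30 adipocyte identity genes, none was called gained or lost, 22 were marked in 5 of 5 libraries, and the 7 marked in a smaller share of HH libraries were those without a peak in HH library 1. The list was marked at 76.7%, 100% and 100% in HH and 100% and 96.7% in CC_l, a difference of -6.11 points that was 1.67 points without HH library 1. Of 25 genes of fatty acid and triglyceride synthesis, 4 were marked in a smaller and none in a larger share of HH libraries, and the difference of -7.33 points was -4.0 points without HH library 1. Acaca, which makes malonyl-CoA, the building block of fatty acids, was at percentiles 78.1 and 95.3 in CC_l and had a peak only in HH library 2, at 20.1. Me1, malic enzyme, was at 90.6 and 55.1 in CC_l and at 37.9 and 3.0 in HH libraries 2 and 3, and Mogat1, which makes diacylglycerol, was at 83.9 and 90.5 in CC_l and at 61.5 and 27.7 in HH libraries 2 and 3. At each of these 3 promoters every CC_l peak was above every HH peak, and again no share of all promoters with this order is given here.

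Cyp2e1, Gpam and Acacb, examples in the study of genes of adipocyte function, were not called. Gpam was marked in 5 of 5 libraries, at 66.8, 98.0 and 98.7 in HH and 99.5 and 98.9 in CC_l. Acacb was at 22.7, 90.8 and 95.4 in HH and 99.9 and 99.9 in CC_l. Cyp2e1 had no peak in HH library 1 and was at 56.7 and 89.8 in HH libraries 2 and 3 and at 98.9 and 98.0 in CC_l. The CC_l percentiles were the higher ones at all 3, the lowest value being that of HH library 1 where it had one. By peak height, which is described below, the groups overlapped at both Gpam and Acacb. Their heights were 143 to 171 in HH library 3 and 116 to 136 in CC_l library 1, while the difference of the groups was below 0 at both. Icam1, an adhesion molecule, was at 89.6, no peak and 21.5 in HH and at 50.5 and no peak in CC_l, with overlapping values.

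Among the other function lists, matrix proteases and their inhibitors differed by about as much as the NF-kB list. They were marked at 56.3% ± 9.95 in HH and 43.1% ± 12.2 in CC_l, with 10 of 29 promoters in a larger and 1 in a smaller share of HH libraries and none called, and the difference of 13.2 points was 10.3 without HH library 1, 21.8 without CC_l library 1 and 4.6 without CC_l library 2. Lipolysis and adrenergic genes were marked at 79.4% ± 7.27 in HH and 85.7% in both CC_l libraries, insulin signalling and glucose uptake genes at 91.7% and 95.8%, and brown and beige fat genes at 61.7% ± 10.4 and 55.0% ± 7.07. AP-1 and ATF factors were marked at 89.3% ± 6.11 and 82.0% ± 2.83. The means lay within 3 points of each other for the lysosome and phagosome (86.1% and 83.3%), collagens and matrix (64.8% and 64.3%), TGF-beta, BMP and activin (76.5% and 76.5%) and ribosomal protein lists (98.9% and 100%). The respiratory chain was at 92.5% ± 10.4 and 98.4% ± 2.28, and the cell cycle list at 76.8% ± 16.7 and 69.7% ± 21.4. In all of these but the matrix proteases and the AP-1 and ATF factors (7.33 points, or 4.0 without HH library 1), the difference was smaller than the spread in at least 1 group.

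At distal regions more regions were called lost than gained, from all 5 libraries and with each library left out in turn. There were 470 gained and 1514 lost regions, with medians of 3702 and 2344 bp in width, against 2057 bp for all regions. Without HH library 1 the counts were 1443 and 1771, which narrowed the ratio. A gain required 3 libraries to agree on a peak and a loss only 2, so the counts in the 2 directions are not directly comparable. Leaving out a CC_l library lets a loss rest on 1 CC_l peak, which favours losses. With an HH library left out, both directions need 2 libraries. The counts were then 694 and 2080 without HH library 2, and 1638 and 2470 without HH library 3. Of the gained regions 42.6% were intronic and 38.5% intergenic, against 36.3% and 43.9% of the lost regions and 39.97% and 41.6% of all regions. The peaks had median percentiles of 54.4, 35.6 and 22.6 at gained regions in the HH libraries and 29.8 and 28.5 at lost regions in the CC_l libraries. Regions within 20 kb of a gene linked the gained ones to 337 genes and the lost ones to 896 genes.

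The strongest gained region lay 13889 bp from Tram2 (chr1:21093118-21099760), which takes part in collagen synthesis at the endoplasmic reticulum, with peaks at percentiles 81.9, 78.4 and 79.1. Next were a region in an intron of Tec (chr5:72792166-72797461; 75.6, 86.0 and 85.1), a tyrosine kinase of blood cells, and 1 in an intron of Ggta1 (chr2:35436449-35454741; 96.4, 88.5 and 73.9), a galactosyltransferase. The region near Col18a1, whose AP-1 letters are printed above, was at 74.9, 76.1 and 69.6. Introns of Sh3pxd2b (chr11:32355891-32367968; 66.7, 96.0 and 91.3), an adaptor of podosomes, the adhesive feet of migrating cells, and of Ext1 (chr15:53136313-53141593; 92.3, 85.1 and 64.3), a heparan sulfate polymerase, also held leading regions, as did an intron of Abhd12 and exons of Gorab, Ubac2 and Slc41a2.

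The strongest lost region lay far from any gene, with Ccdc171 as the closest (chr4:83970150-83976419; 94.1 and 93.3), and its C/EBP letters are printed above. The second overlapped an exon of Nfia (chr4:98118387-98123495; 89.5 and 88.7), a transcription factor that acts with PPARγ in brown fat. Slit3, a secreted guidance protein, had a leading lost region in an intron (chr11:35600188-35610020; 80.9 and 97.2), as did Col23a1 (82.1 and 88.2), a transmembrane collagen. The others overlapped exons of Ankrd52 (87.4 and 86.0), Cntnap1 (83.4 and 85.3) and Slc44a2 (82.4 and 85.1) or lay nearest to Isg20 (84.4 and 84.4), Fam163a (82.0 and 80.9) and Gnai1 (80.8 and 83.7).

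Some genes held many called regions, and these were chosen after the counts were seen. Slit3 had 9 lost regions of 47 linked to it and Nfia 5 of 37, while Tshz2 had 6 of 40, Thada 6 of 34, Creb5 5 of 28, Zbtb20 5 of 49 and Angpt1, the ligand of the endothelial Tie2 receptor, 4 of 15. Prkch, the leading gained promoter, also had the most gained regions, 6 of 28, followed by Mdfic with 3 of 10, Ubac2 with 3 of 15, Filip1l with 3 of 30 and Foxp1 with 3 of 78. Of all 45121 regions linked to a gene, 0.82% were gained and 2.41% were lost, so a gene with many regions would hold some of each.

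Promoter and region calls met at few genes. A gained region was linked to 6 of 98 genes with a gained promoter (6.12%, against 1.54% of all genes), namely A4galt, Fgd3, Fmn1, Prkch, Sept8 and Tnfrsf21. A lost region was linked to 12 of 88 genes with a lost promoter (13.6%, against 4.11% of all genes), among them Npas2, Pon1, Ccbe1, Serpine2, Steap2 and Rnf183. In the opposite direction, 5 gained promoters had a lost region and 1 lost promoter had a gained region. Of 77 regions linked to adipocyte identity genes, none was gained or lost, and of 68 linked to macrophage genes 1 was gained and 1 was lost. Against 0.82% of all linked regions gained and 2.41% lost, regions linked to insulin signalling genes were gained in 2 and lost in 7 of 174 cases (1.15% and 4.02%), and those linked to brown and beige fat genes in none and 5 of 95 (5.26%). Regions linked to mural genes were gained in 3 of 45 cases (6.67%) and lost in none, and 2 regions each were lost for interferon genes (of 39) and lymphocyte genes (of 24), so each list rests on few regions.

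Sites marked in 5 of 5 libraries were compared by peak height, the highest number of overlapping fragments in the peak, on a log2 scale centred on the median of each library. In limma's test with Benjamini-Hochberg adjustment, 0 of 8279 promoters (0%) were higher in HH and 5 (0.0604%) were lower, and 0 of 4636 regions (0%) were higher and 0 (0%) lower. At an unadjusted p under 0.05 there were 323 higher and 307 lower promoters, and 307 higher and 263 lower regions.

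The promoters that passed were low in each HH library. Rnf144b, a ubiquitin ligase, had heights of 30, 31 and 32 fragments in HH and 132 and 124 in CC_l, a log2 difference of -2.0 (SE 0.29, limma adjusted p = 0.0273). Fbxo45 and Wdr53 share a single peak with 31, 40 and 27 fragments in HH and 137 and 158 in CC_l (-2.15, SE 0.32, limma adjusted p = 0.0273). Pptc7, a mitochondrial phosphatase, had 14, 17 and 20 fragments in HH and 70 and 57 in CC_l (-1.87, SE 0.29, limma adjusted p = 0.038), and Tmeff1 had 22, 25 and 40 in HH and 98 and 110 in CC_l (-1.85, SE 0.30, limma adjusted p = 0.0444). At these promoters the groups were far apart, while Pptc7 differed by 0.02 when total signal was used in place of height. No promoter passed with quantile normalization, or when HH library 2, HH library 3 or either CC_l library was left out. An intronic region of Rnf144b (chr13:47213023-47219230), with 24, 32 and 34 fragments in HH and 105 and 107 in CC_l, did not pass (-1.62, SE 0.38, limma adjusted p = 0.285).

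No promoter passed in the direction of HH. The smallest p-values there belonged to Capg, an actin-capping protein of macrophages, with 64, 31 and 54 fragments in HH and 17 and 12 in CC_l (1.78, SE 0.38, limma adjusted p = 0.24), Fam111a with 60, 50 and 48 against 23 and 14, Lbh with 74, 51 and 68 against 22 and 27, and Arid5a with 37, 33 and 41 against 11 and 20. Every HH value was above both CC_l values at all 4, which were picked by their p. The same held at 9.1% of all 8279 promoters. Among regions, the site near Uaca (chr9:61012497-61015448) had 44, 64 and 63 fragments against 15 and 17, and an exon of Tram2 (chr1:21011605-21016740), the gene nearest to the strongest gained region, had 65, 123 and 83 against 18 and 33 (2.06, limma adjusted p = 0.281).

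The difference in peak height between HH and CC_l was below 0 at 22 of 22 promoters of adipocyte identity genes, though none passed the test. The median log2 difference was -0.96, against -0.01 over all 8279 promoters. The heights at these promoters ran from 16 to 64 fragments (median 30.5) in HH library 1, against medians of 120.5 and 149 in HH libraries 2 and 3 and 152.5 and 178.5 in CC_l. Without HH library 1 the median difference was -0.30 with 20 of 22 below 0, so most of the size rested on that library. Cebpa, a master transcription factor of adipocytes, had 54, 83 and 111 fragments in HH and 185 and 277 in CC_l (-1.47, SE 0.32, limma adjusted p = 0.24), and every HH value was below both CC_l values. Thrsp, a lipogenic nuclear protein, had 28, 78 and 99 against 182 and 186, and Pparg, the receptor that drives fat cell formation, had 33, 58 and 84 against 104 and 101. Slc2a4, the insulin-sensitive glucose transporter, had 22, 55 and 76 against 93 and 120. All HH values were below both CC_l values at 9 of the 22 promoters (40.9%, against 10.1% of all 8279), and the groups overlapped at the other 13. Fabp4, a fatty acid carrier, was among those 13, with 26, 138 and 168 against 135 and 137, as was Plin1, which coats lipid droplets, with 26, 179 and 260 against 175 and 281.

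The same direction was seen in lipid lists. The median log2 difference was -0.67 over 14 promoters of lipolysis and adrenergic genes and -0.58 over 21 of fatty acid and triglyceride synthesis, and it was -0.31 and -0.20 without HH library 1. G0s2, an inhibitor of adipose triglyceride lipase, had the largest difference of the lipolysis list, with 26, 51 and 99 fragments in HH and 227 and 231 in CC_l (-2.13, SE 0.39, limma adjusted p = 0.0877). Brown and beige fat genes had a median of 0.09, with 5 of 8 above 0.

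Interferon response genes lay on the other side, with 15 of 16 promoters above 0 and a median of 0.53, or 14 of 16 and 0.37 without HH library 1. Irf1, an interferon-induced transcription factor, had 77, 50 and 59 fragments in HH and 34 and 26 in CC_l (1.08, SE 0.34, limma adjusted p = 0.489). Stat2, which carries the type I interferon signal, had 42, 64 and 60 against 34 and 33, and Usp18, which dampens it, had 63, 40 and 65 against 26 and 36. The HH values were above the CC_l values at these 3 and at 5 of the 16 in all (31.2%, against 9.1% of all 8279 promoters). Tnfrsf1b, a receptor of tumour necrosis factor, had 43, 50 and 44 against 21 and 25, and Ctsa, a lysosomal protease, 47, 34 and 45 against 22 and 17. The lysosome list had a median of 0.11 with 22 of 29 above 0, the NF-kB list 0.2 with 13 of 24 above, collagens -0.29 with 12 of 14 below, the respiratory chain -0.25 with 20 of 25 below and ribosomal proteins -0.06 with 18 of 30 below. Only 3 macrophage promoters were marked in 5 of 5 libraries, with a median of -0.28 and 2 of 3 below 0, and matrix proteases had a median of -0.42 with 8 of 9 below 0, opposite in sign to their difference in presence. The remaining lists of at least 4 such promoters had medians between -0.16 (stromal progenitor) and 0.25 (cytokines, chemokines and adhesion).

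**Figure D3:**
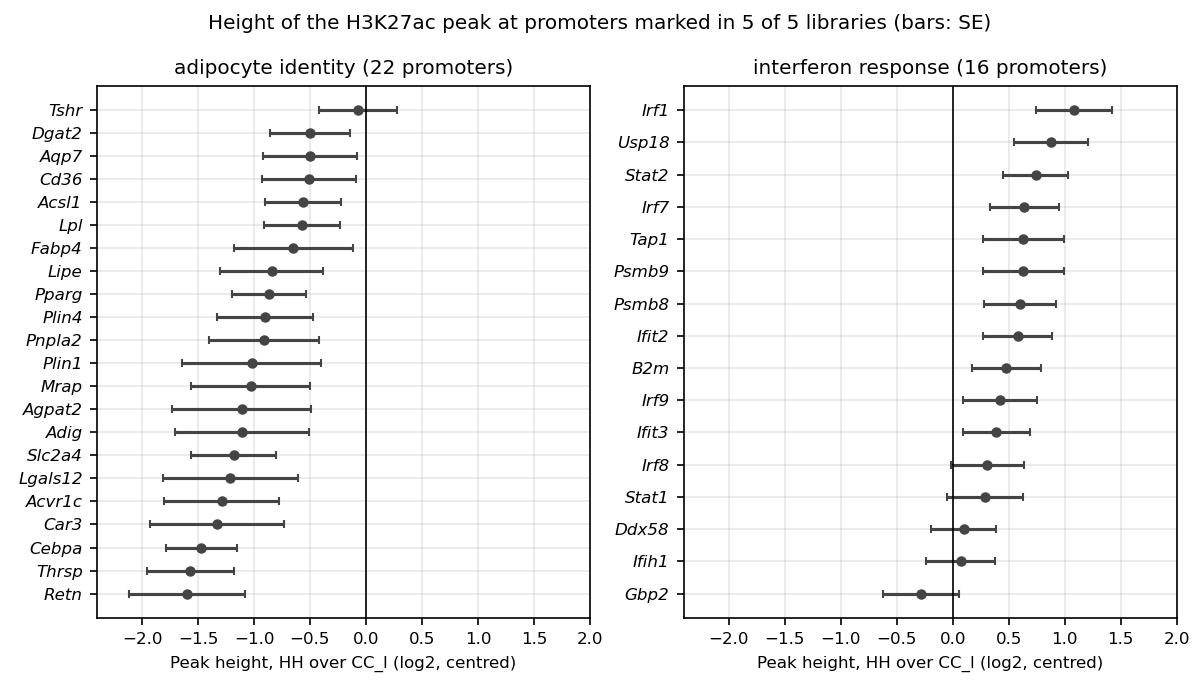
Difference in peak height between HH (n = 3) and CC_l (n = 2), as centred log2 (x axis; points are estimates and bars the SE), at promoters of adipocyte identity and interferon response genes marked in 5 of 5 libraries. All 22 adipocyte estimates lie below 0 and 15 of 16 interferon estimates lie above 0, and none passed the adjusted test.

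The called sites were then read in libraries from other mice, whose peaks did not decide which sites were gained or lost. Their peaks did help to set the bounds of the merged regions, though not those of the promoters. Some came from mice on high-fat diet for 12 weeks (H) or control diet (C), 18 weeks old. Others came from mice returned to chow for 8 weeks after 25 weeks of high-fat diet (HHC), 39 weeks old. The CCC mice, of the same age as HHC, had control diet and then, according to the study, also chow. The gained promoters were marked at 2.04%, 3.06% and 11.2% in the C libraries and at 40.8%, 33.7% and 1.02% in the H libraries, where all promoters were marked at 37.4% and 30.0% on average. H library 3, the exception, had only 12173 peaks. They were marked at 84.7%, 77.6% and 83.7% in HHC, above the mean of 52.9% for all promoters, and at 50% and 0% in CCC, where the second library had only 14915 peaks. When promoters were called without HH library 1, the HHC share was 68.2%.

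The lost promoters were marked at 31.8%, 39.8% and 28.4% in C and at 9.09%, 2.27% and 1.14% in H, so these groups did not overlap, while all promoters were marked at 36.7%, 38.9% and 36.6% in C and 39.1%, 30.2% and 20.8% in H. The H lists covered less of the genome, at 24.43, 9.69 and 9.58 Mb against 48.95, 47.31 and 42.74 Mb in C. The part of this coverage in the low H shares was not tested. For promoters called without HH library 1, the means were 26.5% in C and 11.9% in H, against 33.3% and 4.17%. In HHC the 88 lost promoters were marked at 30.7%, 59.1% and 31.8%, and in CCC at 79.5% and 13.6%. For promoters called without HH library 1, the HHC mean was 65.8% at lost and 68.2% at gained promoters, against 52.9% of all promoters. The higher HHC share at gained than at lost promoters thus rested mostly on HH library 1. Hoxa5 was marked in 3 of 3 C and 1 of 3 H libraries, and Ptges in 3 of 3 and 0 of 3. Of the lost promoters, 9 were also marked in 3 of 3 C and 0 of 3 H libraries, among them Ptges, Rnf183, Nat8f3, Tmprss13 and Chrdl1, which is 10.2% of the 88 and 2.13% of the 423 promoters with that pattern after the shorter diet. Over all promoters, 1.94% had that pattern. The opposite pattern, 3 of 3 H and 0 of 3 C libraries, was found at only 32 promoters (0.146%), none of them a gained one.

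At lost regions the C and H libraries did not overlap either, and with 3 against 3 libraries an exact two-sided permutation test cannot give a p below 0.1. They were marked at 37.1% ± 4.99 (SD, n = 3) in C and 3.37% ± 2.3 (SD, n = 3) in H, while all regions were marked at 18.0% and 12.0%. The smaller coverage of the H lists applies here as well. The gained regions were marked at 4.96% ± 2.48 in C and at 41.9%, 31.7% and 2.55% in H. After return to chow, gained regions were marked at 64.0%, 66.4% and 69.8% in HHC and at 32.1% and 2.98% in CCC, against 34.9% of all regions in HHC, and the HHC share was 36.7% for regions called without HH library 1. Lost regions were marked at 11.8%, 50.5% and 13.2% in HHC, so 1 of the 3 HHC libraries carried many of them. The same call was made between HHC and CCC at 119 gained regions (25.3% of 470, 8.22% of 1448) and at 90 lost regions (5.94% of 1514, 18.5% of 486), where 2.44% of all regions were gained and 0.818% lost.

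**Figure D4:**
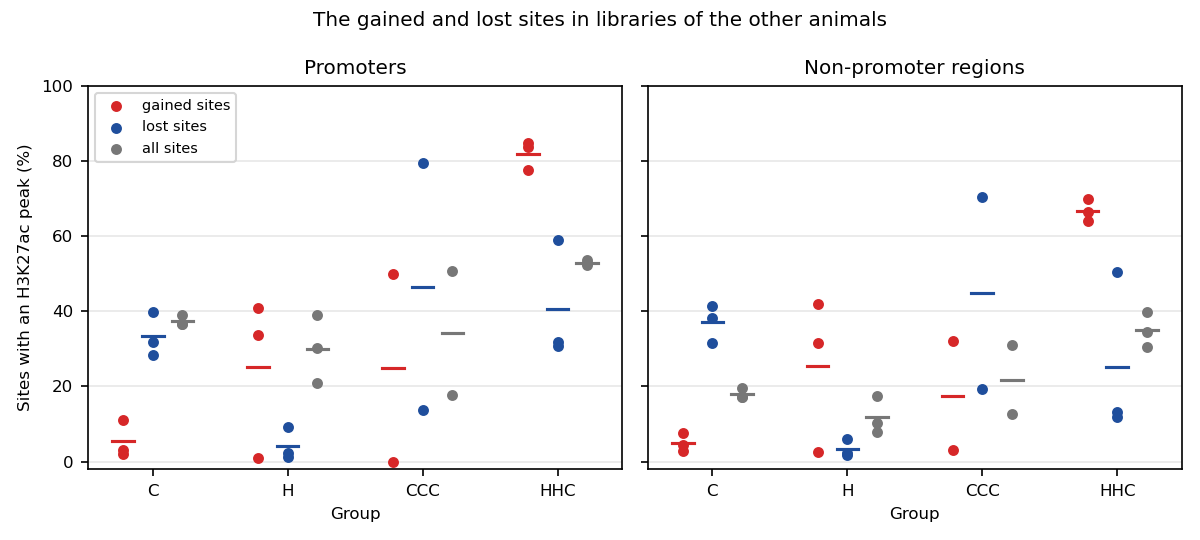
Percent of the gained, lost and all sites with an H3K27ac peak (y axis) in libraries of other mice, by group, for promoters (left) and regions (right), with 1 point per library and a line at the mean. Lost sites lie low in all 3 H libraries (1.14% to 9.09% of promoters), whose lists cover less of the genome than those of C. Gained sites lie high in all 3 HHC libraries (77.6% to 84.7% of promoters). For promoters called without HH library 1, which are not drawn, the HHC means were 68.2% for gained and 65.8% for lost.

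Other marks of the same diet groups were read at the called sites, with groups taken from the titles. H3K4me1, a mark of active and poised enhancers, was present at 73.4%, 88.1% and 83.8% of gained regions in HH and at 43.6% and 44.3% in CC_l. At lost regions it was present at 7.99%, 27.6% and 41.1% in HH and at 72.2% and 83.8% in CC_l, and over all regions at 33% and 35.6% on average. The groups did not overlap in either set. At promoters the H3K4me1 means were 61.9% ± 9.81 and 38.3% ± 12.3 for gained and 23.9% ± 6.01 and 56.8% ± 6.43 for lost promoters, where the means were 30.8% and 37.1% for promoters called without HH library 1. For sites called without HH library 1, the difference at gained regions was 20.4 points and at lost regions -47.5 points. The study assayed several marks from the same fat depots, so these H3K4me1 and H3K27ac libraries may come from the same animals, and the labels do not say which.

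H3K4me3, the mark of active start sites, was present at 96.9% and 96.9% of gained promoters in the HH libraries and at 72.4% and 77.6% in the CC_l libraries, and at 74.4% ± 4.02 and 84.7% ± 5.62 (SD, n = 2 each) of lost promoters. Over all promoters it was present at 63.5% and 62.8%. For 4 H3K4me3 libraries of this cohort the treatment field contradicts the title, and the difference at gained promoters is -9.2 points with groups taken from that field. Most called promoters carried H3K4me3 in every library, 63 of 98 gained and 58 of 88 lost. Of the gained promoters, 11 gained H3K4me3 by title as well (11.2%, against 1.32% of all promoters), namely Rgs3, Cd52, Hpgds, Pirb, Rtp3, Aatk, Ly86, Fgd3, Lalba, Sytl3 and Csf1r. With the treatment field none of them gained it and 7 lost it. A gain of H3K4me1 was found at 10 gained promoters (10.2%, against 2.0% of all), among them Cd180 and Clec14a, an endothelial lectin. Of the lost promoters, 15 also lost H3K4me1 (17%, against 0.705% of all promoters), among them Hoxa5, Chrdl1, Pon1, Vnn1 and Nat8f3, and 6 lost H3K4me3 by title (6.82%, against 0.481%), among them Rnf183, Nat8f3 and Lrtm1. With the treatment field none lost H3K4me3 and 2 gained it.

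H3K27me3, which occupies the same lysine, was present at 34.2% ± 3.61 and 34.2% ± 13.7 of gained promoters in HH and CC_l. At lost promoters it was present at 38.6% ± 9.64 and 26.7% ± 21.7 (SD, n = 2 each), a difference larger than the HH SD and smaller than the CC_l SD. H3K27me3 was lost at 2 gained promoters (2.04%, against 0.943% of all promoters), those of Nfkbid, an inhibitor of NF-kB, and Prkch, and gained at 2 lost promoters (2.27%, against 1.05%), those of Apoa1 and Acox2, which is too few to set apart from the background. No lost promoter lost H3K27me3 and no gained promoter gained it.

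**Figure D5:**
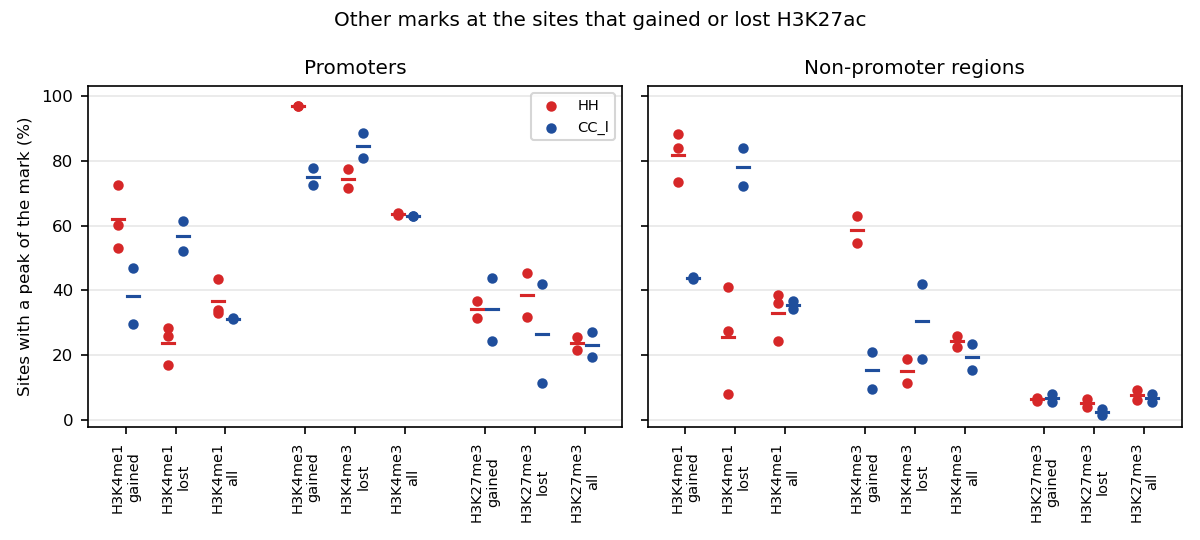
Percent of gained, lost and all sites with a peak of H3K4me1, H3K4me3 or H3K27me3 (y axis) in HH and CC_l libraries, for promoters (left) and regions (right), with 1 point per library and a line at the mean. H3K4me1 lies higher in HH than in CC_l at gained regions (73.4% to 88.1% against 43.6% and 44.3%) and lower at lost regions.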

How the data were processed

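H3K27ac was profiled by CUT&Tag in nuclei of labelled adipocytes, and per the labels and the study's methods the authors trimmed reads with Trim Galore 0.6.6, aligned them to GRCm38 with Bowtie2 2.4.4, handled alignments with SAMtools 1.13, made coverage with bedtools 2.30 and called peaks in each library on its own with SEACR 1.3 in stringent mode at 0.01, which keeps the top 1% of blocks by total signal. In the deposited lists a peak has a position, a total signal and a highest coverage, in whole numbers. They hold no read counts, so depth is unknown and no count model was fitted. Whether duplicate reads were removed is not given in the sources used here. The study's methods name a filter on blacklisted artefact regions. All 5 deposited lists hold a mitochondrial peak, whether they precede that filter is not given, and none was applied in the re-analysis.

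Sites were marked by overlap with Python 3.11.15 (numpy 2.4.6, pandas 2.3.3), using start sites of GENCODE genes on GRCm38. Peak height was compared with limma 3.58.1 in R 4.3.3 on log2 values centred by the median of each library, at sites marked in 5 of 5 libraries, with all 5 libraries in the fit and an adjusted p of 0.05 as the threshold. The fit was tested on simulated data. Single values were compared by exact two-sided permutation tests over libraries. All p-values measure the spread between these libraries, and no separate check of the animals was made.

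Per direction, the 15 promoters and 10 regions named were those whose weakest peak in the marked group was strongest. For peak height, all sites passing the adjusted p are named, or else the 4 with the smallest p. Gained or lost members of 25 gene lists and 6 promoters shown in the study were also named. The members and the lists were chosen with earlier results of these data known. Lists were compared by counts. Clec7a, Trbc1 and Mx2 had no match among the genes. Alternatives were equal peak numbers, the strongest 50% of peaks, a 200 bp overlap, a 500 bp promoter window, a relaxed call, other scalings, and each library left out. Gene lists, other animals, other marks and motifs without a library were alternatives added after seeing the data.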

Additional observations from a re-analysis of the deposited data

How the results depend on the processing

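Every called site stayed called when 1 library was left out, since fewer libraries have to agree, so those counts could only grow. The ranges were 130 to 442 gained and 138 to 578 lost promoters, and 651 to 1638 gained and 1771 to 4428 lost regions. With a relaxed call there were 435 gained and 400 lost promoters and 2835 gained and 3293 lost regions. With the strongest 50% of peaks there were 87 gained and 102 lost promoters and 174 gained and 847 lost regions, of which only 7, 12, 20 and 122 were among the sites called with all peaks. The identity of the called sites thus depends on the cutoff of the peak caller. With an equal number of peaks in each library, 78 of 98 gained and 56 of 88 lost promoters and 335 of 470 gained and 947 of 1514 lost regions were called again. Without HH library 1, 32 further promoters were called gained, among them Tlr7, and 192 further promoters lost, among them Eln and Ndufa9.

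Peak number, width and promoter share changed sign in some settings. Leaving out 1 library gave log2 differences of -0.154 to 0.128 in peak number and -0.055 to 0.146 in width and -0.261 to 0.601 points in promoter share, which was -0.224 points with the 500 bp window. The 5 lower promoters became 3 with total signal, 0 with quantile normalization, 9 with a robust trend and 3 among promoters above the median height. Leaving out 1 library gave 0 to 10 lower and 0 to 7 higher promoters, and 0 to 32 lower and 0 to 35 higher regions, with the highest count in each case without HH library 1. The difference at Pptc7 was 0.02 with total signal.

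Both groups share replicate numbers 1 and 2, and the deviations of same-numbered libraries had correlations of 0.04 and -0.02 at promoters and 0.16 and 0.07 at regions. The deviations of the 2 CC_l libraries mirror each other, so these values cannot decide whether the numbers pair the samples. With the replicate number as a block, 0 promoters were higher and 0 lower, and 137 regions were higher and 101 lower.

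For sites called without HH library 1, HHC libraries held 68.2% of gained promoters, 65.8% of lost promoters and 36.7% of gained regions, C libraries 26.5% and H libraries 11.9% of lost promoters. The H3K4me3 difference was then -3.93 points at lost promoters and 29.1 at gained regions, the H3K4me1 difference -6.31 points at lost promoters and 20.4 at gained regions, and the C/EBP letters were in 17.1% of gained regions. With H3K4me3 groups from the treatment field, the differences were -9.2 and 9.6 points at gained and lost promoters and -14.3 and 23.6 points at gained and lost regions, all opposite in sign to those by title. The causes of these changes were not tested. The depth of each library is unknown, and precision is limited by the 3 HH and 2 CC_l libraries.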
